A study of Mus musculus with 6 samples.

Results

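DEAD and DEAH box RNA helicases were examined after transient knockdown of the long non-coding RNA Dali in the mouse neuroblastoma line N2A. The genes were chosen by symbol: a probe set entered when its single annotated gene was a Ddx or Dhx gene with a number and at most 1 trailing letter, leaving out Ddx58 and Dhx58. For a gene with several probe sets, the set with the highest mean over the 6 arrays was taken. This gave 49 of the 19938 genes measured, 34 of them Ddx and 15 Dhx. The family was proposed with results of this comparison in view, so its counts and medians are given as a description.

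Control cells (3 samples) received a non-targeting shRNA vector and Dali knockdown cells (3 samples) a vector for an shRNA against Dali, each as 1.5 ug of construct, with RNA taken 2.5 days later. All 6 samples came from the same line, and the knockdown group stands for the effect of a single construct. For each sample 200 ng of RNA went onto an Affymetrix Mouse Gene 1.0 ST array, and every value below is a deposited log2 value. Arrays correlated at 0.9904 to 0.9975 and their medians lay between 7.863 and 7.93. Dali was named by 0 probe sets, so depletion of the target was not analysed here. Of 15 markers of sympathetic neuroblasts, the lineage this tumour line resembles, 14 were measured, at mean levels of 8.05 to 13.48, whereas 18 measured markers of other cell types lay between 5.87 and 8.69. The samples are described as biological replicates without their cultures or days, so a p-value here reflects only how far these samples spread, and the number of arrays limits their precision.

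DEAD and DEAH box proteins are named after the amino acid letters of a conserved ATPase motif. They use ATP to open short RNA duplexes, to strip proteins from RNA or to clamp onto it, and different members serve ribosome assembly, splicing, export of messenger RNA, translation and decay. Dividing neuroblastoma cells rely on most of these steps, and several members are also co-regulators of transcription that bind non-coding RNA.

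No member was called in the comparison of Dali knockdown with control cells, but small differences towards higher values ran through most of the family. The knockdown mean was higher for 40 of 49 members (81.6%), against 55% of all genes, and lower for 9. The median difference over the family was 0.11 on the log2 scale, against 0.02 over all genes. Ddx20 (0.33), Ddx25 (0.31), Dhx9 (0.29) and Ddx3x (0.26) had the largest positive differences, and Ddx6 (-0.21) had the largest negative one.

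The upstream sequences of the 5 members with the largest positive differences are shown first, and these members were picked by their differences in the same data. RefSeq windows (GRCm38.p6) were matched for 44 of the 49 members. The 250 bases before each annotated start are given 5′ to 3′ on the gene's strand, with every match to the 8 motifs searched in capitals. These starts need not be the outer end of the gene. The window of Ddx3x lies inside the annotated span of its gene, and those of Ddx20, Dhx9 and Dhx37 overlap theirs in part. Ddx20 lies at chr3:105687572-105687821 (minus strand), Ddx25 at chr9:35558471-35558720 (minus), Dhx9 at chr1:153487661-153487910 (minus), Ddx3x at chrX:13280772-13281021 (plus) and Dhx37 at chr5:125434049-125434298 (minus).
Ddx20: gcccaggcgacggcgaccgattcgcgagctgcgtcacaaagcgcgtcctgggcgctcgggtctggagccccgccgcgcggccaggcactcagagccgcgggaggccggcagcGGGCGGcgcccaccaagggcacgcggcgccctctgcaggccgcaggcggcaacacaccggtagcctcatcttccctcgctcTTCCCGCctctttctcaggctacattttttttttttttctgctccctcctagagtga
Ddx25: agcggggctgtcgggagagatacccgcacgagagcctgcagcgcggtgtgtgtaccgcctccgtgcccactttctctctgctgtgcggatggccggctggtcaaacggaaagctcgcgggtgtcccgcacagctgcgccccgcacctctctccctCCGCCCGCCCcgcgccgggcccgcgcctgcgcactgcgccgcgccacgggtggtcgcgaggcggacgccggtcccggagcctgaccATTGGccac
Dhx9: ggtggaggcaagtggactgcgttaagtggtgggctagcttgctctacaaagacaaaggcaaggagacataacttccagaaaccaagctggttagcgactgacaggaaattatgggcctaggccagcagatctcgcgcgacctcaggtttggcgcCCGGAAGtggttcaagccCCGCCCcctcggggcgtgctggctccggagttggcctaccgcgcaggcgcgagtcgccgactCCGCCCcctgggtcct
Ddx3x: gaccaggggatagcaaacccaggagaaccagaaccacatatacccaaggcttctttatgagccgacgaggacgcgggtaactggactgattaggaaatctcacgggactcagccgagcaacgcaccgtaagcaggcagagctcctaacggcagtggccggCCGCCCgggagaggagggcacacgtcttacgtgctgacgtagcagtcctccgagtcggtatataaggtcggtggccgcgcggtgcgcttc
Dhx37: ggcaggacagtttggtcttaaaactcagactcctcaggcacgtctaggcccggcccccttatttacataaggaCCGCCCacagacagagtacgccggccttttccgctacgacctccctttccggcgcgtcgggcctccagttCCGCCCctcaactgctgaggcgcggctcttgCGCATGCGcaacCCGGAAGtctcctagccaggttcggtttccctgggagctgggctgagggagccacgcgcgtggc

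All 5 windows hold a GC box (GGGCGG or its reverse complement), and each motif was searched on both strands of the first window listed for a gene. In Dhx9 and Dhx37 an ETS motif (CCGGAAG) is also present. In Dhx37 the NRF1 core (GCATGCG) matched on both strands, with the matches overlapping within CGCATGCG. Ddx20 holds an E2F motif (TTCCCGC) and Ddx25 a CCAAT box. Over the 44 matched members, the ETS motif was present in 14 (31.8%), against 9.63% of all 15563 measured genes with a window. Levels differ between these sets, so the same shares were taken over the 8081 of these genes whose mean over the 6 arrays lay above the median of all genes (called brighter genes below). Of the brighter genes 15.1% held the ETS motif. The GC box was found in 61.4% of members and 62.7% of brighter genes, the CCAAT box in 47.7% and 37%, the NRF1 core in 11.4% and 6.11%, and the E2F motif in 9.09% and 7.52%. The E-box (CACGTG) was found in 9.09% and 8.75%, and the cyclic AMP element (TGACGTCA) in 6.82% and 3.04%. A TATA box (TATAAA) was found in 0 of these 44 first windows and in 5.68% of those of brighter genes, but RefSeq lists several windows for 9 members, and a later window held it in Ddx5, Ddx17 and Ddx50. The median GC content was 60.8% in both sets. These matches describe the letters of the windows and were not tested.

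Whether single members responded was asked with limma. A call needed an adjusted p (Benjamini-Hochberg) below 0.1 together with a minimum fold of 1.3 in either direction (0.379 on the log2 scale). After a filter that kept the more variable 11705 of 23410 annotated probe sets, 133 probe sets were called, 1.14% of those tested. The filter kept 19 members and removed 30, and 0 members were called, the lowest adjusted p in limma being 0.35 for Ddx20. At an unadjusted p under 0.05 in the limma fit without the filter, 7 of the 49 members were higher, where 5.33% of all genes were. They were Ddx20, Ddx25, Ddx3x, Dhx37, Ddx51, Ddx10 and Ddx27. Only Ddx6 was lower at that level, where 5.8% of all genes were. Without the variance filter 0 members were called, beside 0.175% of 23410 probe sets. No member reached a difference of 1.3-fold. The standard error of a member's difference had a median of 0.09, and for 33 members the 95% interval lay wholly within 1.3-fold in either direction, while for 16 it reached that size.

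Control and knockdown samples of the same number departed from their group means in the same direction on the whole, so the numbers were treated as pairs and the fit was repeated with the replicate number as a block. With the block 896 probe sets were called, 7.65% of those tested, and again 0 members. Without the minimum fold, the block gave an adjusted limma p under 0.1 for 4 of the 49 members, all higher in knockdown cells and all among the 19 that the filter kept. These were Ddx20 (0.039), Ddx25 (0.051), Dhx9 (0.051) and Ddx3x (0.064). Among the probe sets kept by the filter 9.34% were higher and 12.8% lower at the same level, and no member was lower. In the fit with the block but without the filter, which tested all 49 members, 4 were again higher and 0 lower, beside 4.14% and 5.6% of 23410 probe sets. The block leaves fewer residual degrees of freedom, and the correlation behind the pairing was weak for number 1 (0.141).

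**Figure D1:**
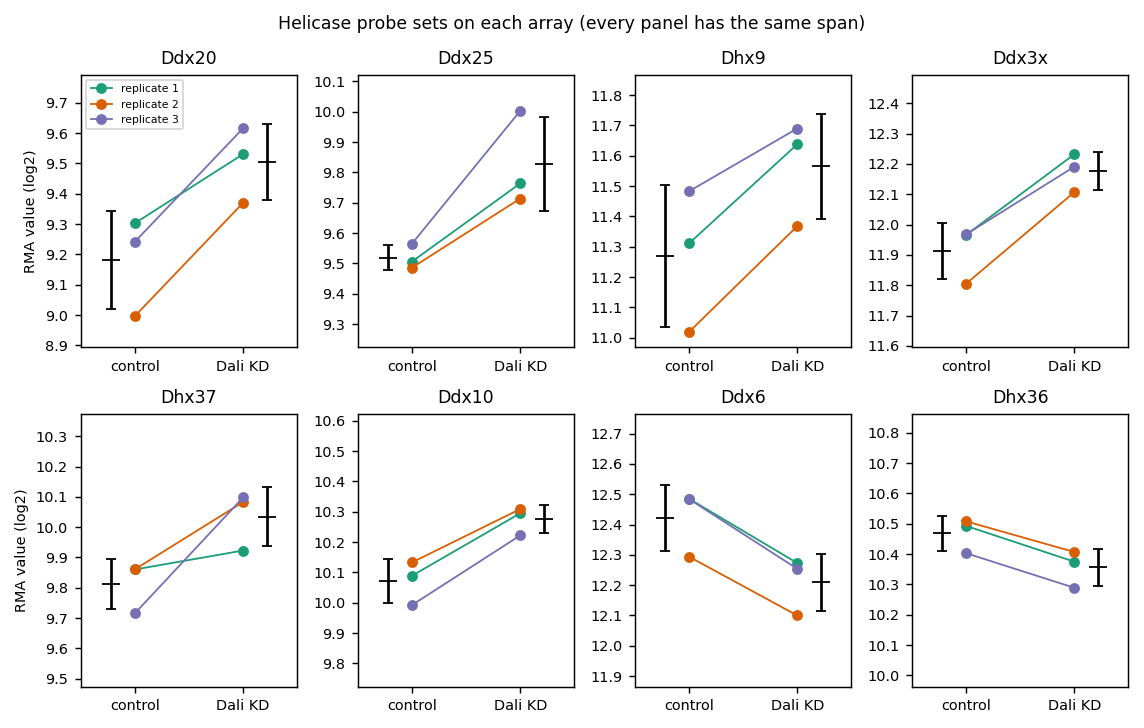
RMA values (log2, vertical axis, each panel spanning the same range) of 8 members in control and Dali knockdown (KD) cells. Points are arrays, lines join arrays with the same replicate number, and bars beside them give the mean and SD of 3 arrays; the 3 knockdown arrays lay above all control arrays for Ddx20, Ddx25, Ddx3x, Dhx37 and Ddx10 and below them for Ddx6, and overlapped for Dhx9 and Dhx36.

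Differences within pairs showed how even the pattern was. In 28 of the 49 members (57.1%) the knockdown array was higher in all 3 pairs, against 21.5% of all genes and 28.3% of the brighter genes. In 2 members, Ddx6 and Dhx36, it was lower in all 3 pairs, against 19.9% of all genes. All 3 knockdown arrays lay above all 3 control arrays for 14 members (28.6%), where 8.47% of all genes and 12.2% of the brighter genes did so. They lay below for Ddx6 alone, against 7.11% of all genes. Members are bright probe sets for the most part, with a median level of 10.35 against 8.36 over all genes. Among the 9969 brighter genes only 49% had a higher knockdown mean, and their median difference was -0.00. Members are not replicates of the knockdown, and they share the same 6 arrays.

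The pairs were unequal. In pair 1 the knockdown array was higher for 32 members (65.3%, all genes 59.2%), whereas it was higher for 41 members in pair 2 (83.7%, all genes 49%) and for 41 in pair 3 (83.7%, all genes 44.6%). The median difference of the members was 0.04 in pair 1, 0.13 in pair 2 and 0.16 in pair 3. Over all genes these medians were 0.05, -0.00 and -0.02, so that in pair 1 the median of the members was no higher than that of all genes. Over the brighter genes they were -0.05, 0.02 and 0.01, below the members in each pair. Both branches of the family gave similar counts over all arrays, with a higher knockdown mean in 28 of 34 Ddx genes (median difference 0.10) and in 12 of 15 Dhx genes (0.12).

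**Figure D2:**
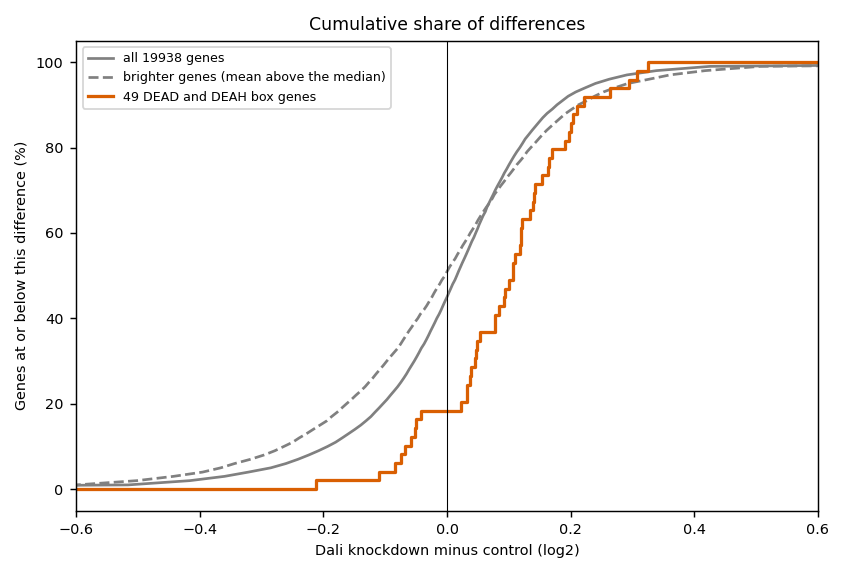
Cumulative share of genes (vertical axis, %) at or below a given difference of Dali knockdown minus control (log2, horizontal axis) for the 49 DEAD and DEAH box genes (orange), all 19938 genes (grey) and the brighter genes (dashed). The helicase curve reaches a difference of 0 at 18.4% of members, to the right of both other curves, and ends at 0.33, beyond which only other genes lie.

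Helicases of ribosome assembly, which remodel precursor ribosomal RNA and small nucleolar RNA contacts in the nucleolus, were the most numerous. Of 16, 15 had a higher knockdown mean and the median difference was 0.12, moving between 0.10 and 0.16 as single arrays were left out. All knockdown arrays lay above all control arrays in 7 of these 16, where 8.47% of all genes and 12.2% of the brighter genes did so.

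Dhx37, which works on the small subunit precursor, had values of 9.86, 9.86 and 9.72 in control and 9.92, 10.08 and 10.10 in knockdown cells. The knockdown arrays were all higher, by little in pair 1 (0.06) and by more in pair 3 (0.38), and the difference was 0.22 (SE 0.09, limma adjusted p = 0.52). Ddx51, which acts on the large subunit precursor, stood at 9.10, 9.06 and 9.09 in control and 9.14, 9.39 and 9.35 in knockdown cells. Here too the groups did not overlap, although knockdown replicate 1 lay just above the control arrays, and the difference was 0.21 (SE 0.09, limma adjusted p = 0.55).

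Ddx10 and Ddx27 gave similar values in every pair. Ddx10, a nucleolar helicase needed for the small subunit, had values of 10.09, 10.13 and 9.99 in control and 10.29, 10.31 and 10.22 in knockdown cells. The lowest knockdown array was above the highest control array, and the pairs gave 0.21, 0.18 and 0.23 (mean 0.20, SE 0.08, limma adjusted p = 0.55). Ddx27, which takes part in large subunit assembly, had values of 10.10, 10.07 and 10.20 in control and 10.30, 10.25 and 10.42 in knockdown cells. Its pairs gave 0.20, 0.18 and 0.22, and again no knockdown array fell within the control range (mean 0.20, SE 0.08, limma adjusted p = 0.56). The other nucleolar members with non-overlapping groups were Ddx56 (0.14), Ddx21 (0.12) and Ddx52 (0.11). Dhx33 (0.17), Ddx24 (0.13), Ddx55 (0.11), Ddx31 (0.11), Ddx49 (0.08), Ddx18 (0.08), Ddx47 (0.05) and Ddx54 (0.05) were higher on average with overlapping groups. A second, dimmer probe set gave 0.02 for Ddx18 and 0.08 for Ddx54, each with overlap. Where in the genome the probe sets of Ddx18 match was not tested, and the chosen set may not measure the gene itself.

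Ddx50 was the exception in the nucleolar group. It is a close relative of Ddx21, which links ribosomal RNA transcription and processing, and its values were 10.07, 10.18 and 9.86 in control and 9.95, 10.10 and 9.86 in knockdown cells. The groups overlapped fully and the difference was -0.07 (SE 0.11). Ddx21 had values of 11.85, 11.79 and 11.83 in control and 12.01, 11.92 and 11.90 in knockdown cells, without overlap and with a difference of 0.12 (SE 0.08). The contrast between both genes within arrays was 0.19, and in an exact permutation test (two-sided) p was 0.2, or 0.45 adjusted over the 3 pairs of paralogues compared. With 3 against 3 arrays the smallest p this test allows is 0.1. By pairs, an exact sign-flip test gave p = 0.25, the lowest it can give for 3 pairs.

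Spliceosomal helicases drive the rearrangements by which the spliceosome forms, acts and comes apart. Of 10, 9 had a higher knockdown mean, and the median difference was 0.15. It rested in part on control replicate 3, without which it was 0.07.

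Ddx20 (Gemin3), a component of the SMN complex that loads Sm proteins onto spliceosomal small nuclear RNAs, had the largest difference of the family. Its values were 9.30, 9.00 and 9.24 in control and 9.53, 9.37 and 9.62 in knockdown cells. Every knockdown array was above every control array, although the array of replicate 2 was the lowest in both groups. The difference was 0.33 (SE 0.11, 95% interval 0.08 to 0.57), a change of 25.3%, with an adjusted limma p of 0.35 after the variance filter and 0.039 with the replicate block.

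Of the other spliceosomal members, Dhx15, which releases the excised intron and disassembles the spliceosome, had a difference of 0.20 with overlapping groups. Ddx41 had a difference of 0.19, and its knockdown arrays were all above the control arrays. Ddx46 (0.16), Dhx35 (0.15), Dhx8 (0.14), Ddx23 (0.10), Ddx42 (0.05) and Dhx38 (0.03) overlapped between the groups, and Dhx16 was lower by a similar margin (-0.04).

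**Figure D3:**
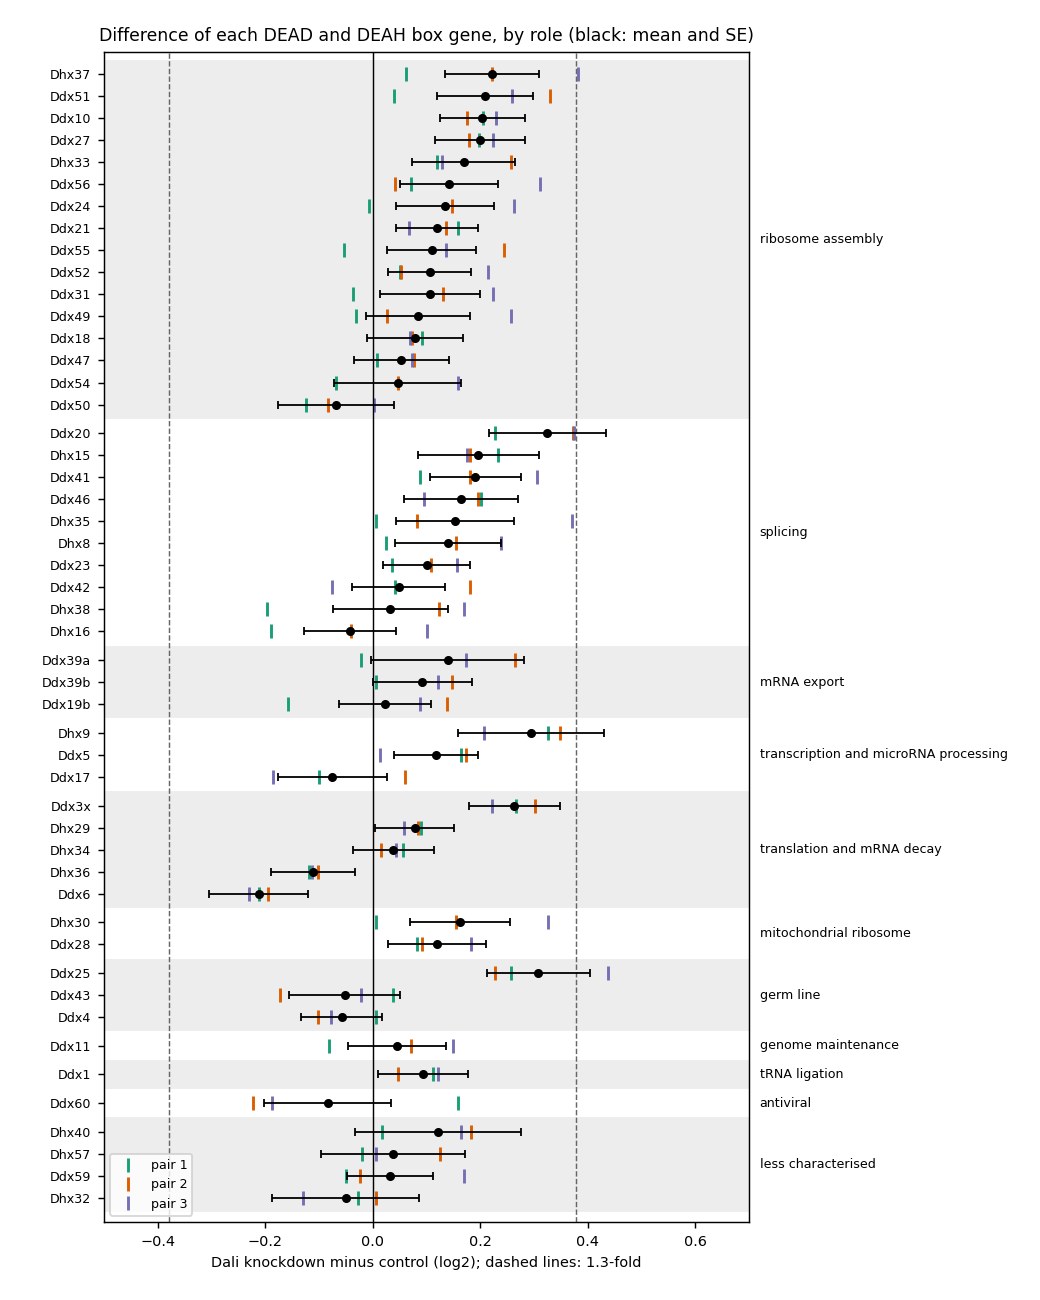
Difference of Dali knockdown minus control (log2, horizontal axis) for each of the 49 members, ordered by role. Black points and bars give the limma difference and its SE over 3 against 3 arrays, coloured ticks the differences within pairs of the same replicate number, and dashed lines 1.3-fold; all black points lie between the dashed lines, from -0.21 for Ddx6 to 0.33 for Ddx20.

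The 3 measured helicases of messenger RNA export were all higher on average, with a median of 0.09. Ddx39a and Ddx39b (UAP56) are paralogues that join export factors to spliced messenger RNA. Ddx39a differed by 0.14 (SE 0.14) and Ddx39b by 0.09 (SE 0.09), and in each the groups overlapped. Their contrast within arrays was 0.05 (exact permutation test, two-sided, p = 0.7, adjusted p = 0.7). By pairs, an exact sign-flip test gave p = 0.5. Ddx19b, which releases export factors at the nuclear pore, differed by 0.02. Without control replicate 2 the median of the 3 was 0.00.

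Dhx9, Ddx5 and Ddx17 couple RNA unwinding to transcription and, for Ddx5 and Ddx17, to processing of primary microRNA transcripts. Dhx9 (RNA helicase A) had values of 11.31, 11.02 and 11.48 in control and 11.64, 11.37 and 11.69 in knockdown cells. The knockdown array of replicate 2 lay within the control range, so that the groups overlapped, yet each pair gave a positive difference (0.33, 0.35 and 0.21). The mean difference was 0.29 (SE 0.14, 95% interval -0.02 to 0.61), with an adjusted limma p of 0.44 after the variance filter and 0.051 with the replicate block. It was 0.17 without control replicate 2 and ran up to 0.40 without control replicate 3.

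Ddx5 (p68) and Ddx17 (p72) are closely related and bind each other, but their values lay on either side of 0. Ddx5 had values of 12.83, 12.78 and 12.84 in control and 13.00, 12.96 and 12.86 in knockdown cells, without overlap, and a difference of 0.12 (SE 0.08). A second, slightly dimmer probe set of Ddx5 gave a smaller difference of 0.06, also without overlap, and was not used in the contrast below. Ddx17 had values of 11.46, 11.58 and 11.52 in control and 11.36, 11.64 and 11.34 in knockdown cells. Knockdown replicate 2 was above all control arrays and the other two below them, and the difference was -0.08 (SE 0.10). The contrast of Ddx5 with Ddx17 within arrays was 0.19 (exact permutation test, two-sided, p = 0.3, adjusted p = 0.45). It was positive in 3 of 3 pairs, for which an exact sign-flip test cannot go below the p of 0.25 it gave.

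The 5 members that act on translation and decay of messenger RNA lay on both sides of 0, with a median of 0.04, which ran from 0.02 without control replicate 1 to 0.07 without control replicate 2. Ddx3x, which helps ribosomes start on messenger RNA with structured leaders, had values of 11.97, 11.81 and 11.97 in control and 12.23, 12.11 and 12.19 in knockdown cells. The lowest knockdown array was above the highest control array, and the pairs gave 0.27, 0.30 and 0.22. The difference was 0.26 (SE 0.08, 95% interval 0.07 to 0.46), with an adjusted limma p of 0.43 after the variance filter and 0.064 with the replicate block. A dimmer probe set of Ddx3x gave 10.56, 10.53 and 10.73 in control and 11.08, 10.78 and 11.11 in knockdown cells, also without overlap. Its difference was 0.38, or 1.302-fold, just past the minimum fold, with an adjusted limma p of 0.26 after the filter and 0.03 with the block. It was therefore called with the block, whereas the brighter probe set chosen for Ddx3x did not reach the fold. Ddx3y, a near copy of Ddx3x, was not analysed here, and whether probes of Ddx3x also detect it was not tested. It was also not tested where in the genome each probe set matches, so the dimmer set may not measure Ddx3x itself.

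Ddx6, which represses translation and promotes decapping of messenger RNA in P-bodies, ran the other way. Its values were 12.48, 12.29 and 12.48 in control and 12.27, 12.10 and 12.25 in knockdown cells. All knockdown arrays were below all control arrays, though by a small margin, and the pairs gave -0.21, -0.19 and -0.23. The difference was -0.21 (SE 0.09), a change of -13.7%, with an adjusted limma p of 0.55 after the variance filter and 0.11 with the replicate block.

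Dhx36, which unwinds G-quadruplexes, had a difference of -0.11 (SE 0.08). Its values were 10.49, 10.51 and 10.40 in control and 10.38, 10.41 and 10.29 in knockdown cells, so the groups overlapped by a single array while each pair was lower, by -0.12, -0.10 and -0.11. Dhx29, a helicase of the scanning ribosome, differed by 0.08 without overlap, and Dhx34, a factor of nonsense-mediated decay, by 0.04 with overlap.

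Ddx25 is known as a testis helicase (GRTH) that is induced by gonadotropin and exports and translates messenger RNA in spermatids. On these arrays its probe set stood at 9.51, 9.49 and 9.56 in control and 9.76, 9.71 and 10.00 in knockdown cells. The groups did not overlap, knockdown replicate 3 lay highest, and the control arrays were tightly grouped. The difference was 0.31 (SE 0.10, 95% interval 0.09 to 0.53), with an adjusted limma p of 0.36 after the variance filter and 0.051 with the replicate block. The other germ line members lay low on the arrays, below the markers of other cell types, where a difference may not be detectable. Ddx4 (Vasa), the classical germ cell marker, stood at 5.42 to 5.57 on all 6 arrays with a difference of -0.06 (SE 0.07). Ddx43 stood at 5.09 to 5.42 with a difference of -0.05 (SE 0.10), and for each the groups overlapped.

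The remaining members had small differences. Dhx30 and Ddx28, which assemble the mitochondrial ribosome, differed by 0.16 (SE 0.09) and 0.12 (SE 0.09). For Dhx30 the groups barely missed overlapping, with the lowest knockdown array at 9.756 and the highest control array at 9.7498. Ddx1, a member of the tRNA ligase complex, differed by 0.09 (SE 0.08), and without knockdown replicate 1 by 0.05. Ddx11, an iron-sulphur DNA helicase of sister chromatid cohesion that carries a DDX symbol, differed by 0.05 (SE 0.09). Ddx60, an interferon-induced gene of antiviral defence, lay low on the arrays (5.90 to 6.32) with a difference of -0.08 (SE 0.12), higher in pair 1 and lower in the others. Among the less characterised members, Dhx40 differed by 0.12 (SE 0.15), Dhx57 by 0.04, Ddx59 by 0.03 and Dhx32 by -0.05 (SE 0.14), all with overlap.

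Related gene lists were compared to see how far the same pattern extended. Among 18 RNA helicases that the naming rule leaves out, such as the eIF4A proteins, the knockdown mean was higher for 12 and the median difference was 0.08. None was called after the filter. With the block, Dqx1, a little studied relative of the DEAH family, was called lower (-0.41, limma adjusted p = 0.025, and 0.3 without the block). Its groups overlapped, though each pair was lower. Eif4a2 was higher by 0.36 without overlap (limma adjusted p = 0.027 with the block and 0.27 without it), but below the minimum fold. Among 41 cofactors that recruit, activate or restrain these helicases it was higher for 34, and the median was 0.07. Again none was called after the filter, and the block called Pdcd4, an inhibitor of eIF4A, lower (-0.50, limma adjusted p = 0.011, and 0.3 without the block). The groups of Pdcd4 also overlapped, and each pair was lower. A median between those of all genes and of the DEAD and DEAH box members was thus seen in both lists. By counts the cofactors were close to the members, with a higher knockdown mean in 82.9% against 81.6%. All knockdown arrays lay above all control arrays in 11 of 41 cofactors and 14 of 49 members, beside 8.47% of all genes. For the 18 other RNA helicases it was 3. Differences between lists were not tested.

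DNA helicases had a larger median difference. All 25 measured had a higher knockdown mean, with a median of 0.32, but the list was uneven. Its quartiles were 0.08 and 0.53, and its lowest value, 0.04 for Mcm9, lay below the median of the DEAD and DEAH box members. After the filter 2 were called higher, Mcm3 by 0.79 and Mcm6 by 0.67 (limma adjusted p = 0.066 and 0.081). The other subunits of the replicative MCM helicase, Mcm2 (0.54), Mcm4 (0.705), Mcm5 (0.62) and Mcm7 (0.43), were also higher in every pair. With the block 12 of the 17 that the filter kept were called higher, where 7.65% of all probe sets tested were called in either direction. They were Mcm2, Mcm3, Mcm4, Mcm5, Mcm6, Mcm7, Mcm8, Blm, Brip1, Rtel1, Fancm and Dna2. By contrast, the median of the neuroblast markers was -0.12 (11 of 14 lower), and that of markers of other cell types was 0.04. Among both marker lists Ddc, the last enzyme of dopamine synthesis, was the only call (0.68, limma adjusted p = 0.079). These values come from the same samples as those of the helicases, and their part in the family's values was not tested. In bulk RNA, a difference in the share of cells of some kind and a difference in RNA per cell cannot be told apart.

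**Figure D4:**
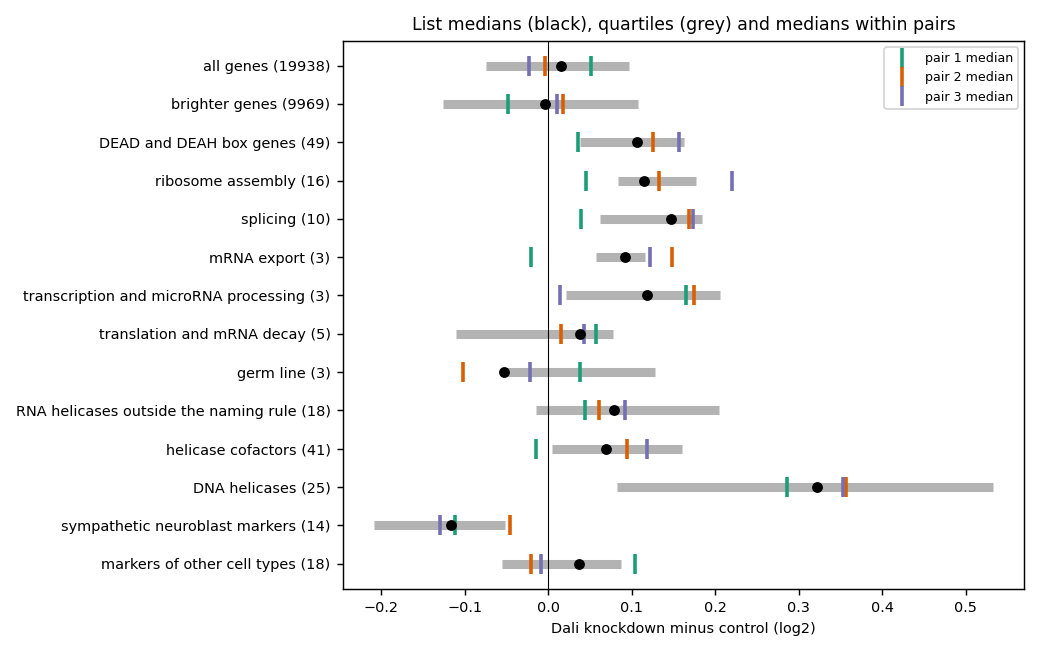
Median difference of Dali knockdown minus control (log2, horizontal axis; black points), quartiles over genes (grey bars) and medians within pairs (coloured ticks) for all genes, brighter genes, the DEAD and DEAH box genes, their larger role groups and the compared lists, with the number of genes in parentheses. The helicase median of 0.11 lies above that of all genes (0.02), the DNA helicases lie highest (0.32) and the neuroblast markers lowest (-0.12).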

How the data were processed

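RNA from 6 N2A samples, 3 control and 3 Dali knockdown, was profiled on Affymetrix Mouse Gene 1.0 ST arrays, and groups and replicate numbers were taken from the sample labels. The authors background corrected, quantile normalised and summarised the probes by RMA, which gave the deposited log2 values (2.76 to 14.8). No source used here states tool versions or the arrays that entered 1 normalisation. Of 35556 probe sets, the annotation paired 21789 with 1 gene symbol and 1621 with several. The other 12146 stayed unnamed and were not used here. Entrez numbers checked against GRCm38.p6 changed 0 symbols. The annotation matched Ddx39 of the lists written for this work to Ddx39a by synonym.

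Groups were compared with limma 3.58.1 (lmFit, eBayes, two-sided) in R 4.3.3, adjusting p-values over all probe sets tested. As in the methods of the study, a filter on variance preceded the test. Reading its cut-off as the median interquartile range was a choice made here. The difference, SE and interval of each member came from the same fit without that filter. Pairing was checked by the correlation of deviations from group means, which was 0.141, 0.646 and 0.655 for numbers 1, 2 and 3, all above the bound of 0.1, although control replicate 1 correlated more with knockdown replicate 2 (0.202). The scripts were tested on simulated data. Motifs were counted with Python 3.11.15.

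The members, role groups and compared lists were chosen with earlier results of these data known. Named members were the 8 largest differences in each direction, the paralogues, the largest difference in each role group and any call. Others complete a role group. Genes of the compared lists were named where called in either fit, and Eif4a2 was added as the largest rise of its list. Alternatives covered the filter, rows without a symbol, the block, array centring, the variance model, the thresholds, the mean over probe sets and leaving out each array. The block without a minimum fold, and the other probe set of a gene with and without the block, were added after seeing the data.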

Additional observations from a re-analysis of the deposited data

How the results depend on the processing

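With the probe set chosen for each gene and the minimum fold, no member was called under the alternatives run, the replicate block (0) included, nor with any array left out. The count moved under both combined alternatives with the replicate block that were added: with no minimum fold it was 4 members, and with the other probe set of Ddx3x, Ddx5, Ddx18 and Ddx54 it was 1, Ddx3x. Over all probe sets, leaving out 1 array gave between 4 calls (without knockdown replicate 1) and 508 (without knockdown replicate 2). The number of members with a higher mean lay between 36 and 42 and their median difference between 0.083 and 0.12 as arrays were left out, and both were the same with the replicate block (40 and 0.11). Centring the arrays moved every difference up by 0.03, to a median of 0.14 over the members and 0.05 over all genes.

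Of 24 named members, 19 kept their sign under every alternative. The sign of 5 turned when an array was left out, where differences ran from -0.14 to 0.084 for Dhx32, from -0.16 to 0.0035 for Ddx50, from -0.13 to 0.028 for Ddx43, from -0.0084 to 0.12 for Ddx11 and from -0.024 to 0.25 for Dhx40. The cause was not tested. The median of the germ line members also ran from -0.07 to 0.03, and that of the less characterised members from -0.04 to 0.12.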

Other observations

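Partners of the members with the largest differences were read from the list of cofactors, and were picked after their values were seen. Ddx20 works within the SMN complex. Smn1 was higher by 0.23 (SE 0.09) and Gemin4, which binds Ddx20 directly, by 0.17 (SE 0.09), each with all knockdown arrays above all control arrays. Gemin5, which recognises the small nuclear RNA, differed by 0.14 with overlap. Gemin2 (0.00), Gemin6 (-0.00), Gemin7 (0.01) and Gemin8 (0.04) lay near 0. None of these was called. The filter removed Gemin2, Gemin4, Gemin5 and Gemin8, and the lowest adjusted p in limma among those it kept was 0.5, for Smn1. With the replicate block the adjusted limma p of Smn1 was 0.099, with a difference below the minimum fold.

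Ddx6 is bound by Lsm14a, Lsm14b, Patl1, Edc3 and Eif4enif1, which link it to translational repression and decapping. Lsm14a was higher by 0.26 (SE 0.08), without overlap between the groups, where Ddx6 itself was lower by 0.21 on the log2 scale. Lsm14b differed by -0.07, Patl1 by 0.15, Edc3 by 0.03 and Eif4enif1 by 0.07, all with overlap. With the replicate block the adjusted limma p was 0.062 for Lsm14a, with a difference below the minimum fold.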
